A study of Mus musculus with 42 samples.

Results

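The dystrophin complex genes analysed here were the 8 genes Dmd, Utrn, Dag1, Sgca, Sgcb, Sgcd, Dtna and Nos1, taken by symbol from a table of 13809 genes, and all 8 were found in all 42 libraries. RNA came from the tibialis anterior (TA) muscle, a muscle of the lower hindlimb, of male C57BL/6J mice aged 4 months. Basal muscle of untreated mice was compared with muscle after 3 days of immobilization of the right hindlimb with plastic sticks, or 3 days after denervation, in which a piece of the sciatic nerve was cut out. Set 1 (22 libraries) held wild-type (WT) mice and 2 lines that overexpress a sestrin in muscle, each in the basal and the immobilized state. The paper used non-transgenic littermates of each line as controls, but the labels do not say to which line the WT mice of set 1 belong. Line background and transgene therefore cannot be told apart there. Sesn1SkM-Tg mice carry a human Sesn1 cDNA under the muscle creatine kinase promoter, and Sesn2SkM-Tg mice a tetracycline-regulated human Sesn2 switched on by a transactivator under the same promoter. Set 2 (20 libraries) held WT and whole-body Sesn1KO mice in the basal and the immobilized state, and denervated WT muscle. There were 4 libraries in a group, except 3 in the immobilized WT and Sesn1SkM-Tg groups of set 1.

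Dystrophin links the actin cytoskeleton of the muscle fibre to a complex in the sarcolemma, and its loss causes Duchenne muscular dystrophy. Dystroglycan spans the membrane and binds laminin of the basement membrane through its sugar chains, the sarcoglycans hold dystroglycan and dystrophin together, and on the cytoplasmic side dystrobrevin and syntrophins anchor signalling proteins such as neuronal nitric oxide synthase. Utrophin is a relative of dystrophin that is concentrated at neuromuscular and myotendinous junctions in adult fibres, and the complex at the sarcolemma is known to lose neuronal nitric oxide synthase when muscles are unloaded.

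Levels are given as normalized counts, a linear scale close to CPM, and changes are log2 fold changes on the log2(value + 1) scale, which understates the change of low genes. A gene was called when the adjusted p of the limma fit over all genes of the set (Benjamini-Hochberg) was under 0.05 and the absolute log2 fold change at least 0.25. Library sums of these values ran from 722430 to 1276769, with the lowest sums after denervation (722430 to 811541). When each library was instead rescaled to a common sum, the median log2 fold change over all genes moved. It went from -0.03 to 0.35 in denervated against basal muscle and from 0.0028 to 0.28 in immobilized WT muscle of set 1. The split of called genes in denervated muscle went from 3792 higher and 3775 lower to 6368 higher and 1886 lower. Directions that turn under that rescaling are therefore named, with the gene or in the closing section on processing. In set 1, libraries differed in a long-gene index, which is the median over 487 genes with a transcript of at least 8000 bases less the median over 1064 genes of 1000 to 2000 bases, on log2 levels centred over the set. The index ran from -0.88 to 0.62 in set 1 and from -0.16 to 0.11 in set 2, and it was lowest in Sesn2SkM-Tg basal replicate 2 (-0.88) and WT basal replicate 4 of set 1 (-0.41). Fits of set 1 without these libraries and fits with the index as a covariate were both chosen after seeing the data. They gave different values for several of the genes, and part of these values is given with the gene. For the changes of Dtna and Nos1 after immobilization in set 1 they are not given here. In each line of set 1 the median index was lower after immobilization, so the covariate and the treatment cannot be fully told apart there. Sesn1 ran from 41.6 to 77.6 in basal Sesn1SkM-Tg muscle against 15.0 to 22.1 in WT muscle, and Sesn2 from 6.54 to 13.0 in basal Sesn2SkM-Tg muscle against 2.18 to 3.39. In basal Sesn1KO muscle Sesn1 was at 8.41 to 10.05 against 22.5 to 29.7 in WT muscle, whereas after immobilization it was at 19.4 to 37.3 against 30.7 to 53.1, so that immobilized Sesn1KO replicate 1 lay above the lowest WT library.

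The starts of Dmd and Sgcd are shown because these genes moved furthest in set 2, and because Dmd has starts that a gene total cannot tell apart. The 250 bases before a start are RefSeq sequence (GRCm38.p6), with E-boxes (CANNTG, on either strand) and the CArG box in capitals. The first window, chrX:82948620-82948869 on the plus strand, lies before the start of full-length Dmd and holds E-boxes 173 and 61 bases and a CArG box 98 bases before the start. The second, chrX:85048045-85048294 on the plus strand, lies before the start of a short Dmd transcript inside the gene and holds neither motif. The third, chr11:47379326-47379575 on the minus strand, lies before the RefSeq start of Sgcd, 197 bases from the nearest GENCODE transcript start, and holds E-boxes 244 and 86 bases before the start.
Dmd full-length start: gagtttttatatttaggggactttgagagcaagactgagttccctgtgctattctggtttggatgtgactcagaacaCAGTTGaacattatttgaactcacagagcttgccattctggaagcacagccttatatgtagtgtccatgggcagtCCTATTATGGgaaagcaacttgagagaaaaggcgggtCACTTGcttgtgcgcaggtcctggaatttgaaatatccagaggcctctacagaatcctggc
Dmd short transcript start: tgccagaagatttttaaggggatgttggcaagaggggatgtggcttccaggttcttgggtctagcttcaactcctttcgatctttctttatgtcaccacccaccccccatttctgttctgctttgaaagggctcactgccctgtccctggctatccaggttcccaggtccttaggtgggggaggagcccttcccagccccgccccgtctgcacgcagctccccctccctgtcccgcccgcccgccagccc
Sgcd start: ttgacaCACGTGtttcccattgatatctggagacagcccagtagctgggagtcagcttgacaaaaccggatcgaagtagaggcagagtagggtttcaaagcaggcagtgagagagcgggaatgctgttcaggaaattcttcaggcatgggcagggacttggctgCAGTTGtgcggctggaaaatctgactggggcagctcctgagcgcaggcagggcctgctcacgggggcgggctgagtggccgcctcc
Of 32851 windows of the same length over all genes, 66.2% held an E-box and 1.47% a CArG box. Windows were found for 7 of the 8 genes, not for Dtna. The window of Sgca and each of the Dag1 windows held 1 E-box and that of Sgcb 0, and those of Utrn and Nos1 are left out because they end at an exon that is internal to other annotated transcripts. A match of letters is not a binding site.

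In basal WT muscle Sgca stood highest per length and Utrn lowest. Per kb of the longest annotated transcript, the means of set 2 (normalized count per kb) were 84.4 for Sgca, 30.9 for Sgcb, 24.5 for Dag1, 17.3 for Nos1, 13.98 for Dtna, 7.31 for Dmd, 5.27 for Sgcd and 2.31 for Utrn. This order was the same in 6 of the 8 basal WT libraries. In WT basal replicate 4 of set 1 Dag1 stood above Sgcb, and in replicate 3 of set 2 Dtna stood above Nos1, and within set 2 the ranges of these neighbours overlapped while those of the other neighbours did not. Lengths are those of GENCODE M21 and the values are gene totals, so isoforms of different length share a value.

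**Figure D1:**
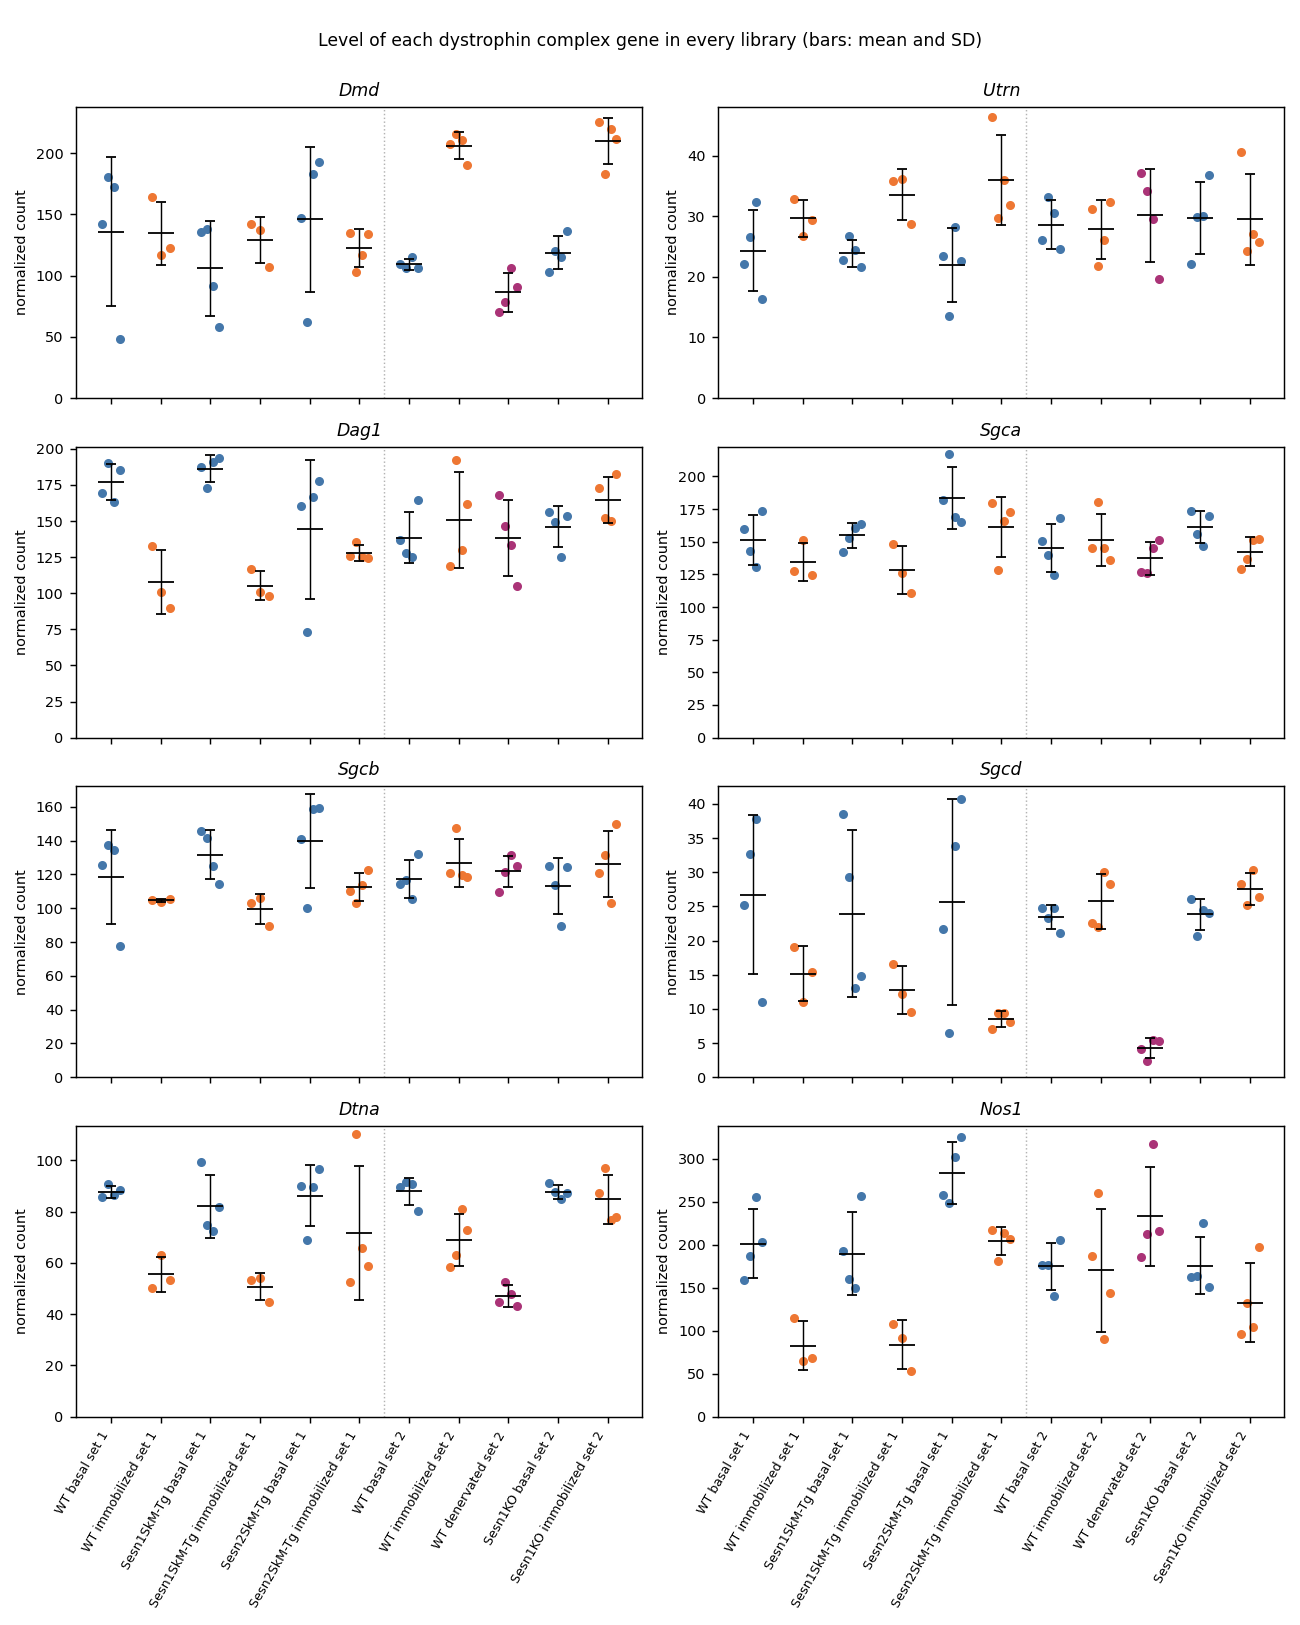
Normalized count (y axis, linear from 0) of each of the 8 genes in every library, by group (x axis), with the mean and SD as bars. Blue points are basal, orange immobilized and purple denervated muscle, and the dotted line separates set 1 from set 2. Dmd in immobilized WT muscle of set 2 (190.5 to 215) stands above basal muscle (106 to 115), and Sgcd in denervated muscle (2.36 to 5.40) stands below all other groups of set 2, whereas the basal groups of set 1 spread widely for both genes.

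Denervated against basal WT muscle called 3 of the 8 genes, all lower, where 55.5% of all genes were called. Immobilized against basal WT muscle of set 2 called 2 (Dmd higher, Dtna lower), against 33.9% of all genes, and immobilized Sesn1KO muscle called 1 (Dmd higher), against 37.1%. In set 1, immobilization called 3 genes in WT muscle (Dag1, Dtna and Nos1, all lower) against 29.3% of all genes, the same 3 in Sesn1SkM-Tg muscle against 34.7%, and 2 in Sesn2SkM-Tg muscle (Utrn higher, Sgcd lower) against 30.7%. Denervated against immobilized WT muscle called 3 (Dmd, Sgcd and Dtna, all lower) against 38.9%. Read against the share of all genes, these counts were near it or under it, and they say nothing particular about the complex as a whole. The median log2 fold change of the 8 genes was -0.05 after denervation against -0.03 over all genes, 0.08 against -0.02 in immobilized WT muscle of set 2, and -0.41 against 0.00 in that of set 1. On rescaling to a common sum, denervation instead called 5 of the 8 genes higher and 2 lower, with a median of 0.42. Most called genes of the whole table were also higher on that scale, as given above. In whole muscle, fewer cells of a type and less RNA per cell cannot be told apart.

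**Figure D2:**
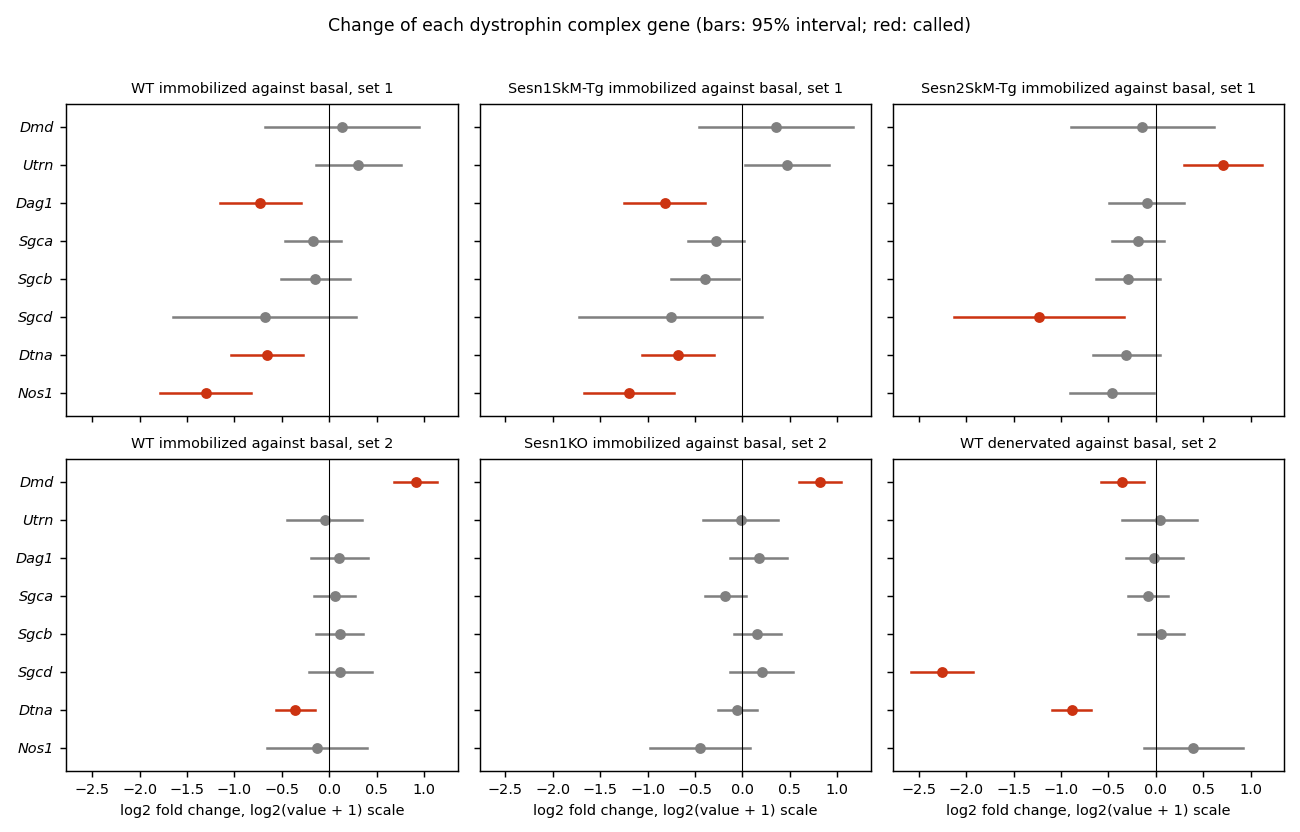
Log2 fold change on the log2(value + 1) scale (x axis) of the 8 genes (y axis) in 6 comparisons, with the 95% interval of the limma fit as bars and called genes in red. Sgcd after denervation (-2.25) is the furthest from 0, Dmd is called higher in both immobilized groups of set 2 (0.91 and 0.82), and the intervals of Dmd and Sgcd are wide in set 1. Of the called values shown, Dmd after denervation (-0.35) turns to 0.11 when libraries are rescaled to a common sum.

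Dmd (ENSMUSG00000045103, chrX:82948870-85206141, plus strand, GRCm38), the gene of dystrophin, rose after immobilization in set 2. Its levels in the 4 basal WT muscles of set 2 were 109, 106, 115 and 106, and in the immobilized ones 208, 215, 211 and 190.5. The immobilized libraries all lay far above the basal ones, with a spread of a few percent within each group. The means were 109 ± 4.39 (SD, n = 4) and 206 ± 10.8 (SD, n = 4), and the log2 fold change was 0.91 (SE 0.11, limma adjusted p = 1.9e-06). In Sesn1KO muscle Dmd was at 103, 120.2, 115 and 136 at baseline and at 225, 183, 220.0 and 211 after immobilization, again without overlap. The change there was 0.82 (SE 0.11, limma adjusted p = 4.4e-06), and 0.78 without immobilized replicate 1, the library in which Sesn1 was not low. The effect in Sesn1KO less that in WT muscle was -0.09 (95% interval -0.41 to 0.22), which was not called.

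After denervation Dmd did not take this course. The 4 denervated muscles had 69.998, 78.1, 106 and 90.8, of which replicate 3 reached into the lower edge of the basal range. The log2 fold change against basal muscle was -0.35 (SE 0.11, limma adjusted p = 0.0084) and turned to 0.11 on rescaling to a common sum, which is -0.32 and -0.24 relative to the median of all genes. Against immobilized muscle, which the denervated libraries did not overlap, it was -1.26 (limma adjusted p = 1.1e-08) and kept its direction under that rescaling (-0.93). In set 1 the outcome for Dmd depended on the long-gene index. It was at 142, 181, 173 and 47.9 in basal WT muscle and at 164, 117 and 122 after immobilization, so the groups overlapped and 1 basal library, replicate 4, set most of the spread. The log2 fold change was 0.13 (SE 0.39, limma adjusted p = 0.82), with a 95% interval from -0.68 to 0.95 that takes in the value of set 2, and it was -0.30 (limma adjusted p = 0.33) without replicate 4. With the index as a covariate it was 0.69 and called higher (limma adjusted p = 0.0022). Basal Sesn1SkM-Tg (57.8 to 138) and Sesn2SkM-Tg muscle (62.3 to 193) spread as widely, against 107 to 142 and 103 to 135 after immobilization, and neither comparison was called (0.36 and -0.14). With the index as a covariate the first was called higher (0.86, limma adjusted p = 0.00031) and the second was 0.21 and not called, and on rescaling to a common sum the second was 0.17.

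Utrn (ENSMUSG00000019820, chr10:12382188-12869365, minus strand), which encodes utrophin, rose after immobilization in Sesn2SkM-Tg muscle. Basal Sesn2SkM-Tg muscle had 23.5, 13.6, 28.2 and 22.7, and immobilized muscle 46.4, 29.7, 35.9 and 31.8. The lowest immobilized library lay just above the highest basal one. The log2 fold change was 0.71 (SE 0.20, limma adjusted p = 0.0096) and stayed at 0.50 or more whichever library was left out. In WT and Sesn1SkM-Tg muscle of set 1 it was 0.31 (limma adjusted p = 0.29) and 0.47 (limma adjusted p = 0.092). Both were called higher with the index as a covariate (0.56, limma adjusted p = 0.005, and 0.69, limma adjusted p = 0.00076), and Sesn1SkM-Tg muscle also without the libraries of low index (limma adjusted p = 0.017). The difference between Sesn2SkM-Tg and WT muscle in the effect was 0.40 (95% interval -0.21 to 1.00) and was not called. On rescaling to a common sum Utrn was also called higher in immobilized WT (0.64) and Sesn1SkM-Tg muscle (0.77) of set 1 and after denervation (0.50). In set 2 Utrn ran from 19.6 to 40.6 over all groups, and its log2 fold changes of -0.05 to 0.09 changed sign with the scaling or with the library left out.

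Dag1 (ENSMUSG00000039952, chr9:108204634-108263958, minus strand), the precursor of alpha- and beta-dystroglycan, was lower after immobilization in WT and Sesn1SkM-Tg muscle of set 1. WT muscle had 169.5, 190.0, 163 and 185 at baseline and 132, 101 and 90.1 after immobilization. Sesn1SkM-Tg muscle had 188, 173, 191 and 194, and then 117, 101 and 97.9. In neither line did the groups overlap. The log2 fold changes were -0.73 (SE 0.21, limma adjusted p = 0.012) and -0.82 (SE 0.21, limma adjusted p = 0.0045). The first was not called without immobilized replicate 3 (-0.61, limma adjusted p = 0.085), and neither was called on rescaling to a common sum (-0.39 and -0.52). In Sesn2SkM-Tg muscle, basal replicate 2 stood at 72.9 and the other 3 at 160.4 to 177, and the immobilized libraries at 124 to 136. The fold change was -0.09 with that library, which turned to 0.21 on rescaling to a common sum and to 0.027 with the index as a covariate, and -0.39 (limma adjusted p = 0.012, called) without it. In set 2 Dag1 was at 125 to 164 in basal, 119 to 193 in immobilized and 105 to 168 in denervated WT muscle, overlapping throughout, with 0.11 after immobilization and -0.01 after denervation, of which the second turned to 0.45 on rescaling to a common sum.

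The sarcoglycans did not move together. Sgca (ENSMUSG00000001508, chr11:94962791-94976327, minus strand), which encodes the alpha subunit, was at 124 to 168 in basal WT muscle of set 2, at 136 to 181 after immobilization and at 126 to 151 after denervation. Sgcb (ENSMUSG00000029156, chr5:73632749-73647790, minus strand), the beta subunit, was at 105 to 132, 118 to 148 and 109 to 131 in the same groups. Neither was called in any treatment comparison of either set with all libraries and no covariate, and their 95% intervals after denervation were -0.29 to 0.13 and -0.19 to 0.30, although on rescaling to a common sum both were called higher there (0.38 and 0.52). In set 1 Sgcb was at 77.6 in WT basal replicate 4 and at 125 to 137 in the other 3, and without the libraries of low long-gene index it was called lower after immobilization in WT, Sesn1SkM-Tg and Sesn2SkM-Tg muscle (-0.33, -0.40 and -0.44). With all libraries the values were -0.14, -0.40 and -0.29, of which the first and the last turned to 0.19 and 0.018 on rescaling to a common sum. With the index as a covariate they were 0.076, -0.20 and -0.15 and not called, whereas Sgca was then called lower in Sesn1SkM-Tg muscle (-0.37, limma adjusted p = 0.02).

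Sgcd (ENSMUSG00000020354, chr11:46896253-47988969, minus strand), the delta subunit, whose loss causes a limb-girdle muscular dystrophy, had the largest change of the 8 genes. In set 2 it was at 24.8, 23.3, 24.8 and 21.1 in basal WT muscle and at 4.06, 2.36, 5.40 and 5.33 in denervated muscle. All denervated libraries lay far below the other groups of the set, whose lowest library held 20.6. The mean went from 23.5 ± 1.74 (SD, n = 4) to 4.29 ± 1.43 (SD, n = 4), a log2 fold change of -2.25 (SE 0.16, limma adjusted p = 2e-10). It stayed between -2.36 and -2.05 whichever library was left out, and was -1.86 on rescaling to a common sum. Immobilized WT muscle had 22.6, 22.0, 29.996 and 28.3, within or above the basal range, and denervated against immobilized muscle differed by -2.37 (limma adjusted p = 4.3e-10). The fold change after immobilization was 0.12 (95% interval -0.21 to 0.45) in WT and 0.20 (95% interval -0.13 to 0.53) in Sesn1KO muscle.

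In set 1 Sgcd was lower after immobilization by its means, but the basal libraries were spread over a wide range. WT muscle had 25.2, 32.7, 37.7 and 11.01 before immobilization and 19.0, 11.02 and 15.4 after it, and replicate 4 was as low as the lowest immobilized library. In Sesn2SkM-Tg muscle the basal values were 21.6, 6.405, 33.9 and 40.7 and the immobilized ones 7.03, 9.42, 9.44 and 8.14. There 3 of the 4 basal libraries lay above every immobilized one, and replicate 2 lay below them all. Sesn2SkM-Tg muscle was called (-1.23, SE 0.43, limma adjusted p = 0.034), but not when any 1 of 6 of its 8 libraries was left out (limma adjusted p = 0.057 to 0.13), and not on rescaling to a common sum (-0.95). WT (-0.68, SE 0.47) and Sesn1SkM-Tg muscle (-0.76, SE 0.47) were not called with all libraries and were called at -1.04 and -0.76 without the libraries of low long-gene index. With the index as a covariate they were -0.024 (limma adjusted p = 0.94) and -0.16 (limma adjusted p = 0.53), neither called, while Sesn2SkM-Tg muscle was called at -0.82 (limma adjusted p = 0.0011). Over the 22 libraries of set 1 Sgcd and the index correlated at r = 0.91 and Dmd at 0.69, while over the 20 of set 2 the values were -0.09 and 0.10. The libraries of a set share their groups, and in set 1 the index ran from -0.88 to 0.62 in basal and from -0.38 to 0.24 in immobilized libraries. Its medians were 0.48, 0.17 and 0.18 in basal WT, Sesn1SkM-Tg and Sesn2SkM-Tg muscle, and -0.15, -0.069 and -0.25 after immobilization. In Sesn1SkM-Tg muscle the basal libraries (-0.0088 to 0.42) all lay above the immobilized ones (-0.31 to -0.059). The covariate thus moved with the treatment, and their parts in these values cannot be told apart.

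**Figure D3:**
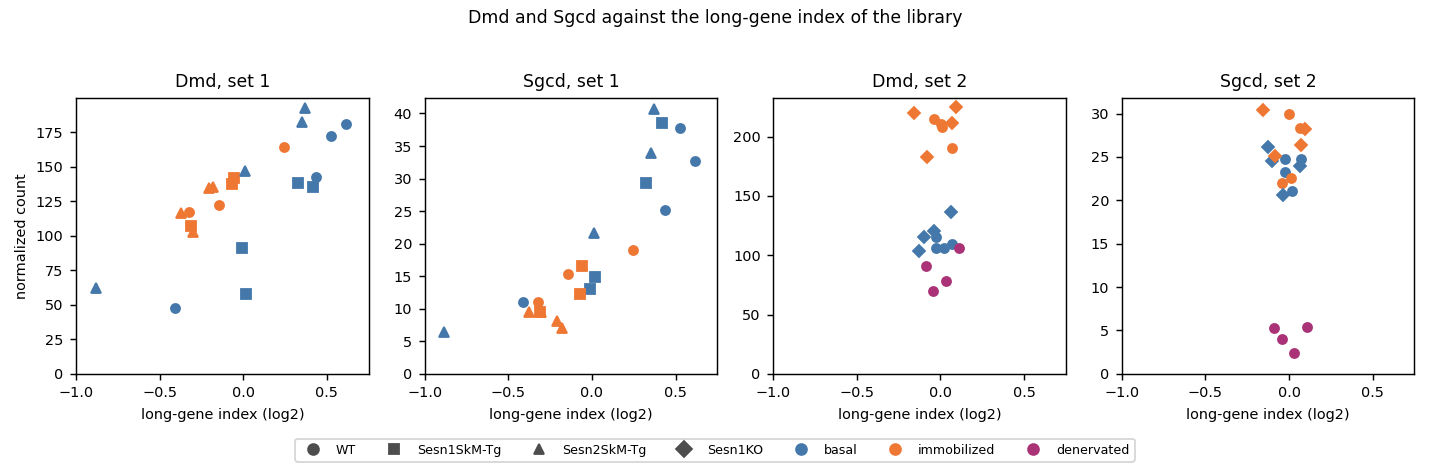
Normalized count (y axis, linear from 0) of Dmd and Sgcd against the long-gene index of the library (x axis, log2) in set 1 and set 2, with the genotype as symbol and the state as colour. In set 1 the libraries span -0.88 to 0.62 and the levels climb with the index, whereas in set 2 they lie between -0.16 and 0.11 and the immobilized (Dmd) and denervated (Sgcd) libraries stand apart at the same index.

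Dtna (ENSMUSG00000024302, chr18:23415135-23659715, plus strand) encodes alpha-dystrobrevin, which binds dystrophin and syntrophins under the membrane. Basal WT muscle of set 2 had 89.6, 91.4, 90.8 and 80.2, immobilized muscle 58.3, 63.3, 81.0 and 72.8, and denervated muscle 44.8, 52.7, 48.1 and 43.2. The denervated libraries lay below all others, and immobilized replicate 3 alone reached the lowest basal value. Dtna fell by 0.89 on the log2 scale after denervation (SE 0.10, limma adjusted p = 1.6e-07) and by 0.36 after immobilization (SE 0.10, limma adjusted p = 0.0074), comparisons that share the basal libraries, and denervated against immobilized muscle differed by -0.53 (limma adjusted p = 2.2e-04). On rescaling to a common sum the 3 values were -0.43, -0.23 and -0.19, of which only the first was called. Sesn1KO muscle had 84.8 to 91.2 at baseline and 76.9 to 97.0 after immobilization, a change of -0.05 that was not called and turned to 0.059 on rescaling to a common sum, and the effect in Sesn1KO less that in WT muscle was 0.31 (95% interval 0.02 to 0.60, limma adjusted p = 0.60).

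In set 1 Dtna was at 85.6, 90.6, 86.3 and 88.6 in basal WT muscle and at 50.1, 63.3 and 53.3 after immobilization, without overlap. The change was -0.66 (SE 0.18, limma adjusted p = 0.011) in WT and -0.68 (SE 0.18, limma adjusted p = 0.0074) in Sesn1SkM-Tg muscle. Each call was lost without immobilized replicate 3 of its line (-0.63, limma adjusted p = 0.052, and -0.59, limma adjusted p = 0.051) and on rescaling to a common sum (-0.32 and -0.38). In Sesn2SkM-Tg muscle immobilized replicate 2 stood at 110.2 against 52.8 to 65.8 in the other 3, and the change of -0.31 was called without it (-0.53, limma adjusted p = 0.0075). An antisense gene, Gm47898, shares 90 exonic bases with Dtna, and the library kit does not keep the strand, so reads of the overlap cannot be told apart.

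Nos1 (ENSMUSG00000029361, chr5:117781032-117958840, plus strand), the gene of neuronal nitric oxide synthase, showed the largest change of the 8 in WT muscle of set 1. Basal WT muscle had 159, 187, 256 and 204 and immobilized muscle 115, 64.7 and 68.7. Basal Sesn1SkM-Tg muscle had 193, 160.5, 149 and 257 and immobilized muscle 107, 91.5 and 52.7. In both lines every immobilized library lay below every basal one. The log2 fold changes were -1.30 (SE 0.23, limma adjusted p = 0.00041) and -1.20 (SE 0.23, limma adjusted p = 0.00063), and WT muscle stayed between -1.56 and -1.15 whichever library was left out and at -0.96 on rescaling to a common sum. Sesn2SkM-Tg muscle had 258, 249, 302 and 325 at baseline and 217, 181, 214 and 206 after immobilization, also without overlap, but the change of -0.46 (SE 0.21, limma adjusted p = 0.11) was called only in a fit of these groups alone. Immobilized Sesn2SkM-Tg muscle lay above all immobilized WT muscles, and Nos1 was the 1 gene of the 8 called between these groups, where 2.94% of all genes were (1.34, SE 0.23, limma adjusted p = 0.0043). Between the basal groups, where 2.5% of all genes and 0 of the 8 were called and 2 had an unadjusted limma p under 0.05, the difference was 0.50 (limma adjusted p = 0.25). With the long-gene index as a covariate, 2 of the 8 were called between the basal groups. Which genes these were, and the share of all genes called, are not given here. The immobilization effect in Sesn2SkM-Tg less that in WT muscle was 0.84 (95% interval 0.19 to 1.49, limma adjusted p = 0.54), so a difference between the lines in the effect was not shown.

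In set 2 Nos1 varied most between replicates in immobilized WT muscle, with an SD of 42.2% of the mean against 15.5% in basal WT muscle. In set 1 these were 33.9% and 20.1%. Basal WT muscle had 177, 177, 140.1 and 206, immobilized muscle 187, 260.0, 90.1 and 144, and denervated muscle 186, 213, 317 and 216. The immobilized libraries spread around the basal ones, and 3 of the 4 denervated libraries lay above all basal ones. The changes were -0.13 (SE 0.25, limma adjusted p = 0.74) and 0.40 (SE 0.25, limma adjusted p = 0.19), the second called in a fit of the compared groups alone and on rescaling to a common sum (0.86). Denervated against immobilized muscle was 0.52 (limma adjusted p = 0.11) and was called without immobilized replicate 2 (0.76, limma adjusted p = 0.018) and on rescaling to a common sum (0.86). Sesn1KO muscle had 163, 164, 225 and 151 and after immobilization 96.5, 132, 104 and 198, of which replicate 4 alone lay above the lowest basal values. Its change was -0.45 (limma adjusted p = 0.18) and was called without that replicate (-0.66, limma adjusted p = 0.046). Antisense Gm26995 shares 268 exonic bases with Nos1.

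The effect of immobilization in WT muscle differed between the sets for 2 of the 8 genes, where 6.2% of all genes were called. Set 1 less set 2, it was -0.83 for Dag1 (SE 0.26, limma adjusted p = 0.047) and -1.17 for Nos1 (SE 0.36, limma adjusted p = 0.044). Both values lie just under the threshold, and the call was lost when any 1 of 11 (Dag1) or 10 (Nos1) of the 15 libraries was left out, with ranges of -0.99 to -0.70 for Dag1 and -1.44 to -0.94 for Nos1, and both calls were lost on rescaling to a common sum and after quantile normalization (-0.64 and -0.99). For Dmd it was -0.78 (SE 0.42, limma adjusted p = 0.27), and -1.22 (called, limma adjusted p = 0.028) without WT basal replicate 4 of set 1, but -0.23 (limma adjusted p = 0.45) with the index as a covariate, with which Dag1 (-0.63, limma adjusted p = 0.063) and Nos1 (-1.06, limma adjusted p = 0.056) were not called either. The sets hold different mouse lines with WT mice of their own, and line, handling and sequencing of a set cannot be told apart. Among the other genotype comparisons, 0 of the 8 were called between Sesn1SkM-Tg and WT muscle, basal or immobilized (0 and 0 with an unadjusted limma p under 0.05, against 0.0292% and 0.0073% of all genes called), or between Sesn1KO and WT muscle (0 and 1, against 0.147% and 0.947%). The 1 was Dtna, higher by 0.30 in immobilized Sesn1KO muscle (limma adjusted p = 0.15). For the immobilization effect of each line less that of WT muscle, 0 of the 8 were called (0, 2 and 1 with an unadjusted limma p under 0.05 for Sesn1SkM-Tg, Sesn2SkM-Tg and Sesn1KO, against 0%, 0.0073% and 0.022% of all genes called).

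A ratio to Dmd within a library does not depend on how that library was scaled, and it describes how the gene of the cytoskeletal anchor stood against its partners. In immobilized against basal WT muscle of set 2 all 7 partners were lower relative to Dmd, by -0.80 (Sgcd) to -1.28 (Dtna) on the log2 scale, and in Sesn1KO muscle by -0.62 (Sgcd) to -1.27 (Nos1). The groups were fully separated for each of the 14 ratios, and the rise of Dmd itself enters all of them. Dmd rose by 0.91 and 0.82, where the median over all genes was -0.02 and -0.03. A gene that did not change would therefore also be lower relative to Dmd. The share of all genes separated in this way was not computed, so the separation says nothing particular about the partners. In denervated against immobilized muscle 6 partners were higher relative to Dmd, by 0.73 (Dtna) to 1.80 (Nos1), and Sgcd was lower by -1.37. Against basal muscle, denervated muscle had lower Sgcd (-2.17) and Dtna (-0.55) and higher Nos1 (0.75) relative to Dmd. Each of these had the smallest p that 4 libraries against 4 can give in the exact two-sided permutation test (0.029), and over the 49 ratio tests 26 had an unadjusted p under 0.05 while 0 passed adjustment (the smallest adjusted p was 0.054 in the exact test). The tests in immobilized WT and Sesn1SkM-Tg muscle of set 1, with 3 libraries against 4, cannot go under 0.057 in the exact test. They count in the adjustment although they could not pass, so 0 passing does not show that the ratios were unchanged.

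**Figure D4:**
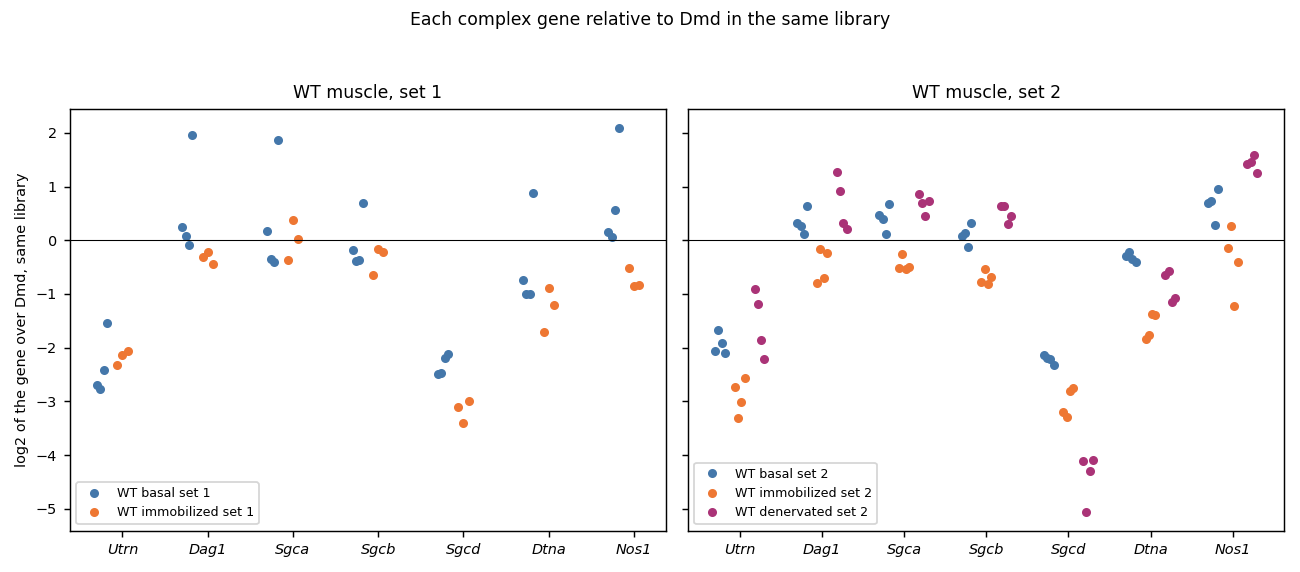
Log2 ratio of 7 genes to Dmd in the same library (y axis) by gene (x axis) for WT muscle of set 1 and set 2, with each point a library. In set 2 the immobilized libraries lie below the basal ones for each gene, and the denervated ones lie lowest for Sgcd (difference from basal -2.17) and highest for Nos1 (0.75), whereas in set 1 WT basal replicate 4 stands above the other WT libraries for each of the 7 genes.

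Genes around the complex were read from lists made for this work, given as called genes out of those tested in immobilized WT muscle of set 1, of set 2, and in denervated muscle. Of 9 further members of the complex, 0 rose in any of the 3 comparisons, and 1, 2 and 6 fell. Sspn, which encodes the sarcoglycan partner sarcospan, fell by 0.84, 0.56 and 1.05. After denervation Sgce, epsilon-sarcoglycan, changed by -0.95 and Drp2, a dystrophin relative of Schwann cells, by -0.68. Both are low, with means of 2.90 against 6.52 in basal muscle for Sgce and 1.67 against 3.29 for Drp2. Sgcz, Sntg1 and Sntg2 are not analysed here. On rescaling to a common sum the counts were 2, 1 and 0 higher against 1, 1 and 3 lower, and Drp2 was not called. The median of the list after denervation was -0.54, and -0.27 on that scale where the median of all genes was 0.35.

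Among 17 genes for the sugar chains through which dystroglycan binds laminin, 0, 4 and 5 rose and 4, 4 and 4 fell. Pomgnt2 (-0.76, -0.92 and -0.81) and Pomk (-0.77, -0.93 and -0.56), enzymes of the early core of the chain, fell in all 3 comparisons, the last of Pomk not on rescaling to a common sum (-0.13). After denervation B3galnt2, which adds the next sugar of that core, was at a mean of 163 against 80.0 (1.02, limma adjusted p = 7.7e-06). Ispd, which makes the ribitol donor, rose there by 0.88 at low levels (means of 3.68 against 1.55), and the O-mannosyltransferase Pomt1 by 0.73. With that rescaling the counts were 4, 4 and 10 higher against 2, 3 and 1 lower.

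Of 10 matrix ligands and their partners, 2, 1 and 1 rose and 4, 3 and 6 fell, with a median of -0.84 after denervation. Laminin chains Lama4 (-1.16), Lama2 (-1.11) and Lamb1 (-1.07) and the laminin binder Nid1 (-1.09) changed most there. Lamb2 fell in all 3 comparisons (-0.69, -0.45 and -0.998). Bgn, the proteoglycan biglycan, which binds dystroglycan and sarcoglycans, rose after immobilization in each set (1.68 and 1.701) and was not called after denervation (0.54). On rescaling to a common sum the counts were 4, 2 and 3 higher against 1, 2 and 5 lower.

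Of 9 cytoskeletal partners, 1, 2 and 1 rose and 3, 2 and 3 fell. Synm, the intermediate filament synemin, was at a mean of 365 against 899 after denervation (-1.37, limma adjusted p = 2.1e-05), and Ank2, the ankyrin that places dystrophin at the membrane, fell in all 3 comparisons (-1.15, -0.67 and -1.03). Actg1, cytoplasmic actin, fell by 0.71 after denervation, a call lost on rescaling to a common sum (-0.25), and desmin (Des) rose by 0.28 after denervation and by 0.93 after immobilization in set 2. On that scale 3, 2 and 4 were higher and 1, 1 and 2 lower.

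Integrins and talins form the other link between the fibre and laminin. Of 9 such genes tested, 3, 4 and 6 rose and 1, 0 and 1 fell, and 5, 4 and 7 rose against 0, 0 and 1 on rescaling to a common sum. Itgb1, the integrin beta 1 chain, rose in all 3 comparisons (1.13, 1.00 and 0.93), as did its muscle partner Itga7 (1.27, 1.498 and 0.44). After denervation the talins parted, with Tln1 at a mean of 259.5 against 120 (1.09, limma adjusted p = 4.9e-08) and Tln2 at 52.4 against 113 (-1.10, limma adjusted p = 8.3e-06), and Vcl, vinculin, rose by 1.08. As a check of the denervated state, 6 of 6 postsynaptic genes rose, with Myog by 5.57, Chrna1 by 4.60, Chrnd by 4.27 and Musk by 3.61, while 4 of 6 and 3 of 6 rose after immobilization in set 1 and set 2, and Musk rose by 1.403 and 1.62 there.

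**Figure D5:**
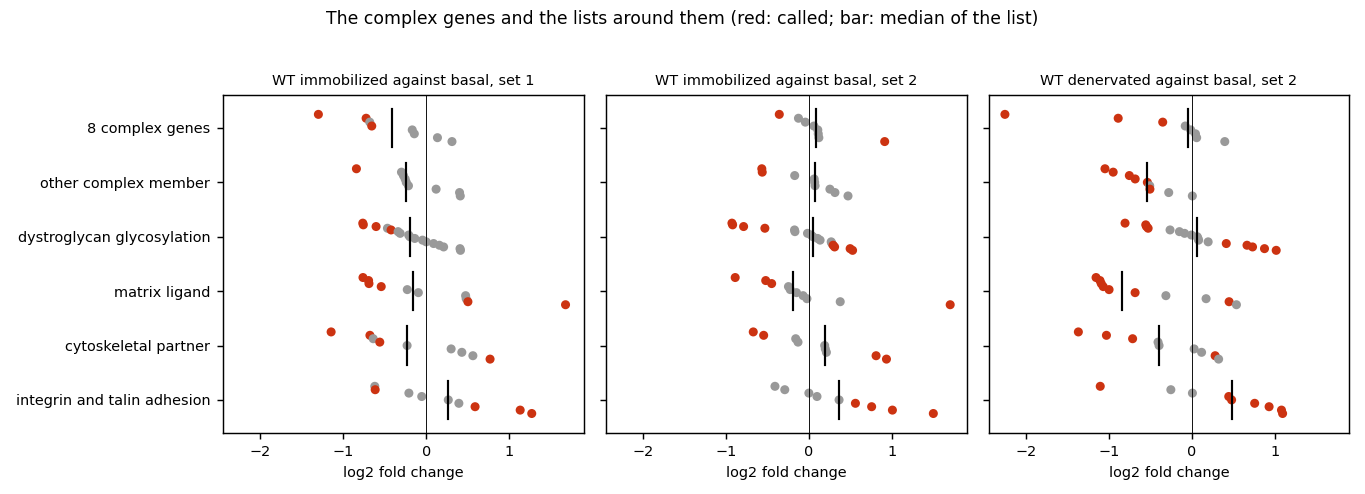
Log2 fold change (x axis) of each gene of the 8 complex genes and of 5 surrounding lists (y axis) in 3 comparisons, with called genes in red and the median of each list as a bar. After denervation the median is -0.05 for the 8 genes, -0.54 for the further members, -0.84 for matrix ligands and 0.48 for integrin and talin genes, where rescaling to a common sum gives 0.42, -0.27, -0.38 and 0.93.

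The share of all genes called in these 3 comparisons was 29.3%, 33.9% and 55.5%, which is the measure for the counts in each list without rescaling. These shares take both directions together. Counts after rescaling to a common sum, of lists or of markers, have no such share beside them and say nothing particular about a list. After denervation most called genes of the whole table were higher on that scale, as given above. Markers of cell types moved in the same comparisons, and their part in the results above was not tested. No value in the table is 0. All 10 markers of muscle fibres were in the table, and after denervation all 10 fell, their sum going from 139883 to 151857 in basal muscle to 56330 to 74774. Endothelial markers fell in 7 of 7 (sums 285 to 366 and 143 to 182), smooth muscle in 5 of 6 (415 to 640.2 and 217 to 272), Schwann cell in 3 of 7 (43.8 to 70.4 and 17.2 to 23.8) and fibroblast markers in 2 of 6 (502 to 849 and 376 to 588). Macrophage markers rose in 1 of 6 (26.4 to 122 and 40.4 to 105) and satellite cell markers in 2 of 5 (37.4 to 46.9 and 104 to 116). In immobilized WT muscle of set 1, where Dag1, Dtna and Nos1 were lower, muscle fibre markers fell in 4 of 10 (sums 127335 to 154865 and 83867 to 102382) and macrophage markers rose in 6 of 6 (33.6 to 50.3 and 158 to 327). There Schwann cell markers rose in 5 of 7 (18.6 to 33.9 and 52.4 to 90.6), smooth muscle markers in 3 of 6 (191 to 336 and 448 to 558), fibroblast markers in 3 of 6 (449.8 to 1162 and 903 to 1692) and satellite cell markers in 3 of 5 (37.1 to 44.0 and 58.5 to 73.4), and endothelial markers rose in 3 and fell in 1 of 7 (182 to 250.2 and 259 to 302). In immobilized WT muscle of set 2, where Dmd was higher, muscle fibre markers rose in 2 and fell in 2 of 10 (127156 to 136713 immobilized), endothelial markers fell in 6 of 7 (165 to 263) and smooth muscle markers in 4 of 6 (216 to 395). Macrophage markers rose there in 2 of 6 (92.9 to 186) and satellite cell markers in 1 of 5 (50.1 to 56.4), and no Schwann cell (31.0 to 52.4) or fibroblast marker (522 to 1755) was called. On rescaling to a common sum, muscle fibre markers fell in 9 of 10 after denervation (4 of 10 after quantile normalization) and in 1 of 10 in set 1, where endothelial markers rose in 6 of 7.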

How the data were processed

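Total RNA of TA muscle was sequenced from NEBNext Ultra libraries, a kit that does not keep the strand. The authors trimmed the reads with Cutadapt 1.7.1, quantified them on GRCm38 transcripts with RSEM 1.2.20 and normalized them for limma. The notes also name FastQC, edgeR and limma, without a version or role. The deposited table holds this normalized signal per gene and library for 13809 genes, of which 103 have no symbol. It holds no counts of reads, so the depth is unknown and no counting error is given. Gene totals do not separate isoforms, or human transgene reads from mouse reads. Whether genes were adjusted between the sets was not tested, and levels were compared within a set. Columns of the table were matched to samples by title, and 0 columns of values were left unused.

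Genes that reached a value of 1 in any library were tested on log2(value + 1) with limma 3.58.1 (R 4.3.3, eBayes with trend), in 1 fit per set (13705 genes in set 1, 13629 in set 2) and 1 over both sets (13763) for the difference between sets. The script was tested on simulated data. Ratios to Dmd were taken without a pseudocount. Labels give replicates without saying that they are separate animals, so p-values measure the spread between these samples, which may be technical. Intervals are 95%. Gene positions and lengths came from GENCODE M21 (13715 genes matched). The 8 genes and all lists were chosen with earlier results of these data known. From each list, the text names up to 4 genes with the largest called changes after denervation and up to 3 called the same way in both WT immobilizations, and some genes that this rule names are not reported here. Same-numbered samples of 2 groups were checked for shared deviations (r of -0.22 to 0.15), which did not pair them. Alternatives were other scalings, filters, pseudocounts, a replicate block, fits of the compared groups alone and leaving out each library.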

Additional observations from a re-analysis of the deposited data

Results flagged for a closer look

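Single libraries stood apart in 4 of the 72 combinations of a gene and a group of 4 samples, as judged by the gap to the nearest library over the group's range (Dixon's 95% limit), which chance alone gives in about 1 of 20 groups. Dag1 was at 72.9 in basal Sesn2SkM-Tg replicate 2, against 160.4 to 177 in the other 3, and this library also had the lowest long-gene index (-0.88). Dag1 was at 136 in immobilized Sesn2SkM-Tg replicate 2, against 124 to 126. Sgcb was at 148 in immobilized WT replicate 2 of set 2, against 118 to 121. Dtna was at 80.2 in basal WT replicate 4 of set 2, against 89.6 to 91.4.

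The effect of immobilization in WT muscle differed between set 1 and set 2 for Dag1 (-0.83, limma adjusted p = 0.047) and Nos1 (-1.17, limma adjusted p = 0.044). These were tested as the difference itself. Each call was lost when any 1 of 11 (Dag1) or 10 (Nos1) of the 15 libraries was left out, and on rescaling to a common sum.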

How the results depend on the processing

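Sgcd and Dtna after denervation and Dmd in both immobilized groups of set 2 kept their direction and call under every alternative run, with leave-one-out ranges of -2.36 to -2.05, -0.94 to -0.85, 0.89 to 0.95 and 0.76 to 0.89. Rescaling each library to a common sum gave 16 values of the other sign. These were Sgca 0.17 and Sgcb 0.19 (immobilized WT, set 1), Sgca 0.028 (Sesn1SkM-Tg), Dmd 0.17, Dag1 0.21, Sgca 0.13 and Sgcb 0.018 (Sesn2SkM-Tg), Utrn 0.077 (WT, set 2), Utrn 0.090 and Dtna 0.059 (Sesn1KO), Dmd 0.11, Dag1 0.45 and Sgca 0.38 (denervated against basal), and Dag1 0.22, Sgca 0.20 and Sgcb 0.29 (denervated against immobilized). With that rescaling the called genes of the 8 numbered 1 in immobilized Sesn2SkM-Tg and 1 in WT muscle of set 2, 7 after denervation (5 higher and 2 lower) and 0 for the difference between sets, and the split of all called genes was 4093 higher and 741 lower against 2037 and 1981 in immobilized WT muscle of set 1. Quantile normalization gave Utrn -0.036 and Dag1 0.0061 after denervation and 0 for the difference between sets, and median centring gave Utrn 0.027 in immobilized Sesn1KO muscle. The difference between sets also had 0 called genes without the eBayes trend and 1 with the compared groups alone, where immobilized Sesn1SkM-Tg muscle had 5. With a replicate block it had 0 as well (Dag1 -0.80, Nos1 -1.13), and the block changed no other call. Samples share only a number, which was not taken as a pair. Apart from the splits given for rescaling, the share of all genes called under these alternatives is not given here. The counts of called genes under them therefore say nothing particular about the complex.

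Chosen after seeing the data, leaving out the 2 libraries of low long-gene index gave 5, 6 and 4 called genes in immobilized WT, Sesn1SkM-Tg and Sesn2SkM-Tg muscle, 4 for the difference between sets, and Dmd at -0.30 in WT muscle of set 1. With the index as a covariate, also chosen then, the counts were 5 (WT) and 6 (Sesn1SkM-Tg), 2 for basal Sesn2SkM-Tg against WT muscle and 0 for the difference between sets, with Sgcb at 0.076 (WT, set 1), and Dmd at 0.21 and Dag1 at 0.027 (Sesn2SkM-Tg). For both kinds of fit the share of all genes called is not given here. Their counts therefore cannot be read against that share, and they say nothing particular about the complex. Leaving out 1 library at a time, the counts ran from 1 to 3 (immobilized WT, set 1), 2 to 3 (Sesn1SkM-Tg), 1 to 4 (Sesn2SkM-Tg), 1 to 2 (Sesn1KO), 3 to 4 (denervated against immobilized) and 0 to 2 (difference between sets). No share of all genes called is given for these fits either, so the ranges show only how the counts depend on single libraries. Values that crossed 0 were Dag1 (-0.39 to 0.031) and Dmd (-0.50 to 0.033) in Sesn2SkM-Tg muscle, Dmd in WT muscle of set 1 (-0.30 to 0.33), and in WT muscle of set 2 Dag1 (-0.020 to 0.21), Nos1 (-0.36 to 0.14), Sgca (-0.028 to 0.13) and Utrn (-0.12 to 0.063). The others were Utrn in Sesn1KO muscle (-0.18 to 0.087), Dag1 (-0.11 to 0.11) and Utrn (-0.068 to 0.23) after denervation, and Dag1 (-0.22 to 0.0062), Sgcb (-0.090 to 0.022) and Utrn (-0.023 to 0.27) against immobilized muscle. Among ratios to Dmd these were Dag1 (-0.064 to 0.11), Dtna (-0.48 to 0.090), Sgca (-0.27 to 0.41) and Sgcb (-0.26 to 0.063) in Sesn2SkM-Tg, Sgca in WT (-0.55 to 0.21) and Utrn in Sesn1SkM-Tg muscle (-0.041 to 0.34). Causes other than fewer samples or the scaling itself were not tested. Without counts of reads, low values such as those of Sgcd in denervated muscle carry a counting error that is unknown.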

Other observations

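As a description over the 42 libraries, which share their groups and sets, the genes whose log2 level followed each of the 8 most closely after centring within a set were ranked by Pearson's r. Sgcd went with Hipk3 (0.92), Cmya5 (0.90), which encodes myospryn, and Amer1 (0.90). Dmd went with Eea1 (0.89), an early endosome protein, Usp47 (0.87) and Phf20l1 (0.86). Dtna went with Mlf1 (0.85), Fhod1 (0.85) and Pcnx (0.84), and Dag1 with Tmem182 (0.84) and Gatad2b (0.80). Nos1 went with Acaca (0.83) and Acacb (0.81), the acetyl-CoA carboxylases, and with Wnk2 (0.81). For Dag1 and Nos1 the likeness was closer in set 1. There r was 0.95 (Tmem182), 0.90 (Gatad2b), 0.88 (Acaca), 0.91 (Acacb) and 0.91 (Wnk2), against 0.53, 0.47, 0.76, 0.45 and 0.57 in set 2. For Sgcd, r with each gene named was higher in set 2 than in set 1. Sgca, Sgcb and Utrn had Phpt1 (0.81), Mia3 (0.83) and Sptbn1 (0.79) as their closest genes.

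Among the 8 genes themselves, Sgcd and Dtna went together in set 2 (r = 0.84, 20 libraries) and less so in set 1 (0.52, 22 libraries). Dtna and Nos1 had opposite signs in the sets (-0.54 in set 2 and 0.68 in set 1). Sgcb and Sgcd were at 0.76 in set 1 and at -0.06 in set 2, and in set 1 both also followed the long-gene index of the library (0.73 and 0.91). Utrn and Sgca were at -0.58 in set 2 and -0.45 in set 1.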
